A study of Caenorhabditis elegans with 4 samples.

Results

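The sites described here are the 193 peaks on chromosome III among 1119 peaks that were called across the Caenorhabditis elegans genome after chromatin immunoprecipitation (ChIP) of the tagged transcription factor NHR-237. They were taken by chromosome alone, as every row assigned to III in the deposited list that combines both ChIP libraries. III itself was chosen with earlier results of these data known. The lists of the single libraries held 2247 of 16621 peaks on III in replicate 1 and 2543 of 18457 in replicate 2, and served as support. Both ChIP libraries, and 2 input libraries that were not analysed here, came from hermaphrodites of strain OP228 at the first larval stage (L1), grown at 20 °C. All animals carried the unc119(ed3) mutation and wgIs228, a bombarded transgene that holds nhr-237 fused to TY1, EGFP and FLAG tags together with unc119. Chromatin was fixed with formaldehyde, and fragments bound by the fusion protein were collected with anti-GFP antibodies. The peaks therefore report the tagged protein in whole larvae, with all cell types mixed and no untagged strain beside it. The stage label also reads 26dC, which the labels do not explain. Nothing states that the replicates came from separate cultures, so their agreement may be technical.

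NHR-237 belongs to the nuclear hormone receptors, transcription factors that bind DNA through a zinc-finger domain and often carry a pocket for a small lipophilic ligand. The family is much expanded in nematodes, and most of its nematode members have no known ligand. C. elegans autosomes share a layout in which a gene-rich central region with little recombination lies between arms that recombine more and hold more repeats. Peak positions are in WormBase WS220. No genome or annotation of that build was used, so sequences and nearby genes, exons or UTRs were not analysed here. The gene unc-119, of which the transgene adds copies, is itself on III, and whether a peak lies at it was likewise not analysed. Each peak has a deposited number, from 1 upward within its list, and a score from the authors' caller. The number was taken as the order of strength, which the lists do not state, so a stronger peak here means one with a lower number. The highest score is shared by all combined peaks up to number 519, where the score gives no order. Beyond that, number and score do not always run together: on III the score was 2.54 at number 520, 2.67 at number 702 and 2.46 at number 722. Over the whole combined list the Spearman's rho between number and score was -0.94.

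The strongest sites on III were mostly narrow and were found near the top of both libraries' lists. Combined peak 1, the strongest of the genome, lay at III 3867431 to 3867691 (261 bp) and was number 3 in replicate 1 and number 1 in replicate 2. Combined peak 4, at 10758988 to 10759264 (277 bp), was number 5 in replicate 1 and number 10 in replicate 2. Peak 9, at 5678998 to 5679193 (196 bp), was number 10 and number 15. These 3 sites thus stood at the head of each library's own list. The combined list was made from these libraries, so their ranks are no independent check of the combined numbers. Peak 13, at 7854518 to 7854743 (226 bp), was number 11 in replicate 1 and number 16 in replicate 2. Peak 15, at 12612359 to 12612808, was number 19 and number 12, and peak 16, at 6971936 to 6972168 (233 bp), number 25 and number 7. Peak 22, at 12905009 to 12905194 (186 bp), was number 16 and number 31. The 2 libraries disagreed more on peak 25, at 8043798 to 8044024 (227 bp), which was number 67 in replicate 1 and number 6 in replicate 2.

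The next 7 sites by number lay at III 8447017 to 8447173 (number 28, 157 bp), 4899680 to 4900129 (31), 3456334 to 3456482 (42, 149 bp), 13643408 to 13643857 (43), 5018059 to 5018508 (57), 9765325 to 9765774 (66) and 1619077 to 1619217 (74, 141 bp). For all 15 sites the number was at most 86 in replicate 1 and at most 94 in replicate 2. The combined centre was shifted by up to 15 bp from that in replicate 1 and by up to 53.5 bp from that in replicate 2. Of the 15, 10 were narrower than the 450 bp given to most combined peaks. These 10 were also the only narrow combined peaks on III. Narrow peaks were not particular to III, since the whole list had 49, with 26 on the other autosomes and 13 on X. Combined peak 2, on II at 10563403 to 10563631, was among them. None of the 15 had another combined peak within 2 kb, and the closest pair of them was 118 kb apart, so they were 15 separate places spread from 11.7% to 99.0% of the chromosome's length. Another 8 peaks on III had numbers up to 100, and all 23 overlapped a peak of both replicates, from which the combined list was made.

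By the median, peaks on III stood nearer the top of the combined list than those on I, II, IV and V, but their share of its first 100 places did not differ past the threshold. The median combined number was 435 on III and 585.5 on the other autosomes together, where the medians ran from 570 on I to 599 on IV. The highest score was held by 106 of 193 peaks on III (54.9%) and by 315 of 734 on the other autosomes (42.9%), beside 46.4% of the whole list. Numbers 1 to 100 included 23 of 193 peaks on III (11.9%, 95% Wilson interval 8.07 to 17.2) and 50 of 734 on the other autosomes (6.81%, interval 5.21 to 8.87), beside 8.94% of the whole list. That difference did not pass Fisher's exact test after adjustment over 7 comparisons (odds ratio 1.85, interval 1.05 to 3.19, p = 0.024, adjusted p = 0.054). All tests here are two-sided and treat peaks as independent, which neighbouring peaks are not. All intervals cover the counting of peaks, since read depth is unknown.

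The share of autosomal peaks that lay on III was largest at the top of every list and close to the share of length at the bottom. Chromosome III makes up 16.7% of the autosomal length, taking the largest peak end in any list as the length of a chromosome. In the combined list it held 8 of the 15 autosomal peaks numbered 1 to 25 (53.3%, interval 30.1 to 75.2). For numbers 26 to 100 the share was 25.9% (interval 16.3 to 38.4), and for numbers 101 to 300 it was 27.0% (interval 20.7 to 34.4). It then came to 18.1% for numbers 301 to 600 and 18.3% for numbers 601 to 1119. The intervals of both hold 16.7%, as does that for numbers 26 to 100. The single libraries, ranked separately, showed the same course, but the combined list was made from them, so they are no independent check. Replicate 1 had 7 of 16 autosomal peaks on III among numbers 1 to 25 (43.8%), and replicate 2 had 8 of 16 (50.0%). For numbers 101 to 300 these shares were 23.8% in replicate 1 and 26.5% in replicate 2. Among peaks numbered above 10000 they were 16.7% in both. The bounds of these classes were chosen with the data known, so the shares are a description. Chromosome X is left out of these shares but was also frequent at the top. It held 10 of the first 25 combined peaks and 27 of the first 100, against 8 and 23 on III. X made up 17.7% of the length of all chromosomes and III 13.7%.

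**Figure D1:**
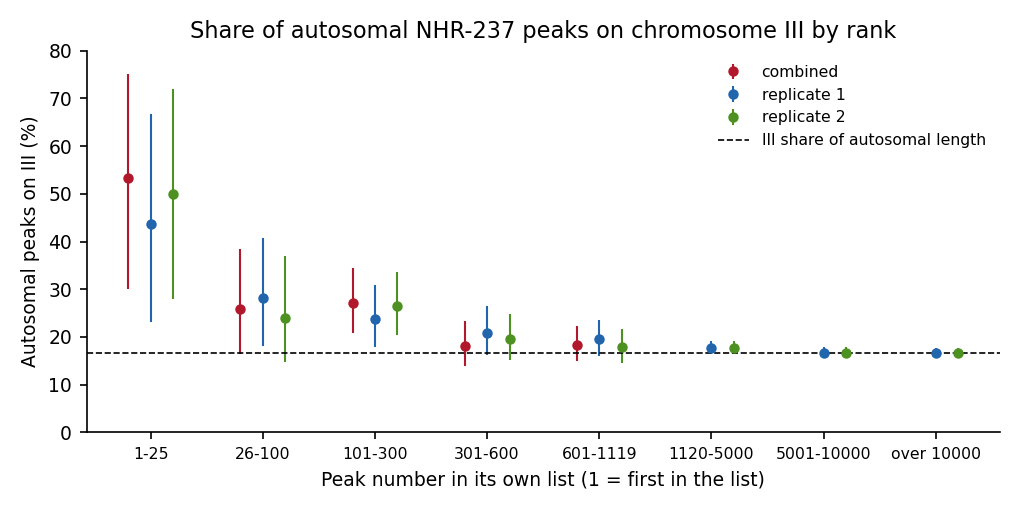
The plot shows the percentage of autosomal peaks that lay on chromosome III (y axis) for classes of peak number within each list (x axis), for the combined list and both replicate lists, with 95% Wilson intervals as bars. The dashed line marks the 16.7% of autosomal length that III makes up. The points of all 3 lists lie above the line up to number 300, those of the combined list end at 18.3%, and those of the replicate lists come to the line beyond number 5000.

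Counted over the whole combined list, III carried 14.0 peaks per Mb (exact Poisson interval 12.1 to 16.1) and the other autosomes together 10.7 per Mb (interval 9.92 to 11.5). The ratio of densities was 1.31 (interval 1.11 to 1.54, exact binomial test, adjusted p = 0.0077). Counts per 1 Mb window varied more than the test assumes, with a variance over mean of 1.89 on III and 2.30 on the other autosomes. Among the latter it ran from 0.966 on IV to 2.93 on II. The density intervals here are therefore likely too narrow and the p-values too small. The single autosomes followed with 12.7 per Mb on I, 11.7 on II, 11.0 on IV and 8.27 on V. III was thus the densest autosome. It was chosen with earlier results of these data known, which the p-values do not allow for. Set against one autosome at a time, the ratio was 1.69 to V (exact binomial, adjusted p = 4.1e-06), 1.28 to IV (adjusted p = 0.054), 1.20 to II (adjusted p = 0.14) and 1.10 to I (adjusted p = 0.42). Of the single autosomes, III thus passed the exact test against V only, and its place above I, II and IV did not pass. V was also low beside others. Its Poisson interval (7.08 to 9.60) lay below those of I (11.0 to 14.6) and II (10.0 to 13.5) and met that of IV (9.48 to 12.6). Without V the ratio to the remaining autosomes was 1.19 (exact binomial, p = 0.036, adjusted p = 0.063). Among combined peaks numbered above 300, III held 127 and the other autosomes 568, a density ratio of 1.12. Among numbers 1 to 300, III held 66 and the other autosomes 166, a density ratio of 1.98. Both ratios are given without a test, since the bound was chosen with the data known. With the highest score alone the ratio was 1.68 (exact binomial, adjusted p = 7.4e-05), and in the upper 50% of the numbers it was 1.55 (adjusted p = 0.00086).

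The replicate lists, from which the combined list was made, gave like ratios when each was shortened to its 1119 strongest peaks. III then held 195 peaks in replicate 1 (ratio 1.38, exact binomial, adjusted p = 0.00083) and 193 in replicate 2 (ratio 1.31, adjusted p = 0.0079). In the full lists, III had 163 peaks per Mb in replicate 1 and 185 in replicate 2, against 157 and 179 per Mb on the other autosomes. Those ratios, 1.04 and 1.03, did not pass the exact test (adjusted p = 0.16 and 0.20).

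Along the chromosome, combined peaks reached into every part of III. Cut into 4 equal parts from the left end, III had 10.4, 13.4, 18.0 and 14.2 peaks per Mb, from 36, 46, 62 and 49 peaks. The third of these parts was thus the fullest and the first the emptiest. The same parts of the other autosomes together had 8.26, 12.4, 13.9 and 8.15 peaks per Mb. In the last of them, the right arm, III stood above each of the other autosomes, which had 12.6 per Mb on II, 9.30 on I, 7.55 on IV and 4.59 on V. In the first it lay below IV (11.4) and I (10.6), and in the second below II (14.4) and I (13.8). These densities were not tested part by part. The arms of III together carried 12.3 peaks per Mb and its central 50% 15.7, against 8.20 and 13.2 on the other autosomes.

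**Figure D2:**
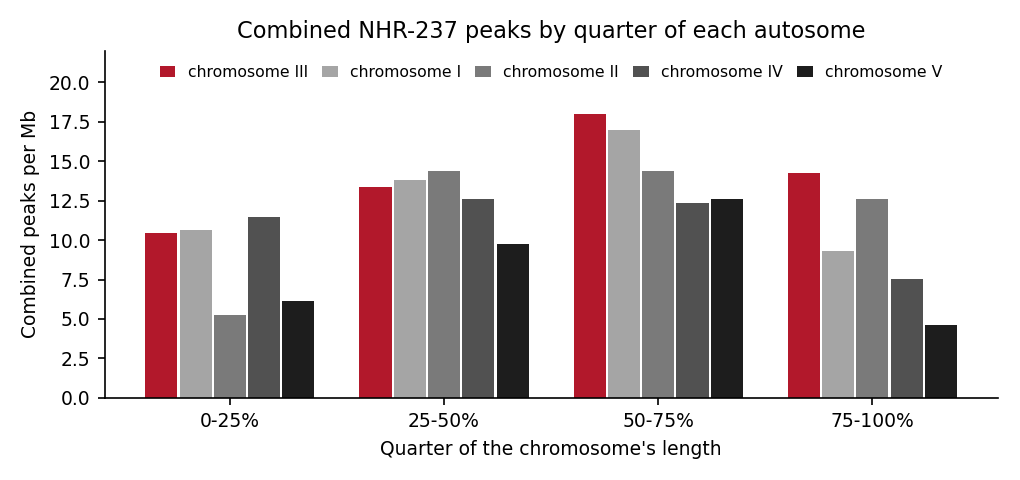
Bars give combined peaks per Mb (y axis) in each of 4 equal parts of the chromosome's length (x axis, from the left end) for chromosome III and for I, II, IV and V. On III the last part has 14.2 peaks per Mb, against 4.59 to 12.6 on the others.

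The central 50%, from 25% to 75% of the length, held 108 of 193 peaks on III (56.0%, interval 48.9 to 62.8) and 452 of 734 on the other autosomes (61.6%, interval 58.0 to 65.0), beside 58.0% of the whole list. The difference did not pass Fisher's exact test (odds ratio 0.793, interval 0.568 to 1.11, adjusted p = 0.20). The left 50% of the length held 82 of 193 peaks on III (42.5%) and 355 of 734 on the other autosomes (48.4%), beside 47.0% of the whole list. This too did not pass (odds ratio 0.789, interval 0.565 to 1.10, Fisher's exact adjusted p = 0.20). By rank, of the 23 peaks on III numbered 1 to 100, 16 were central (69.6%), 8 on each side of the midpoint, while 3 were on the left arm and 4 on the right. Of the 43 numbered 101 to 300, 21 were central (48.8%), of the 47 numbered 301 to 600, 30 were (63.8%), and of the 80 numbered 601 to 1119, 41 were (51.2%). The central share thus went up and down with rank and was not tested by class. In the full lists the central share on III was 61.7% in replicate 1 (interval 59.7 to 63.7) and 54.8% in replicate 2 (interval 52.9 to 56.7). On the other autosomes it was 59.4% and 56.1%. The libraries therefore differed more in this share on III than on the other autosomes, a difference that was not tested.

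In windows of 1 Mb, III had a median of 11 combined peaks over 13 full windows, with a range of 9 to 25. The other autosomes had a median of 10 over 67 windows, with a range of 2 to 26. The emptiest window of III thus held 9 peaks, more than the emptiest window of I (4), II (2), IV (5) or V (3). The window from 8 to 9 Mb was the fullest on III, and the strongest of its 25 peaks was number 25, described above. It also held 24 of the 1119 strongest peaks in each replicate. The windows from 4 to 5 Mb, 10 to 11 Mb and 7 to 8 Mb followed, with 20, 19 and 18 peaks. The emptiest, from 6 to 7 Mb, had 9 combined peaks, but one of them was number 16. That window was not poor in weak peaks, with 221 peaks of the full replicate 1 list, the most of any 1 Mb window on III. In the full replicate 2 list it had 187, and the most was 236, from 5 to 6 Mb.

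Strong sites were spread thinly but widely. Every 1 Mb window of III but one, from 11 to 12 Mb, held a peak numbered 1 to 100. On the other autosomes 38 of 67 windows held none. On X only the full windows from 3 to 4 Mb and from 10 to 11 Mb held none, so the wide spread was not particular to III. The window from 11 to 12 Mb had 10 combined peaks, all with numbers above 300, and its strongest was number 317. In windows of 0.5 Mb the counts on III ran from 2 to 14 with a median of 6 over 27 windows, against 0 to 15 with a median of 5 over 135 windows of the other autosomes. The fullest was 8.5 to 9 Mb and the emptiest 6.5 to 7 Mb. No peak numbered 1 to 300 was found in 4 of the 27 windows on III and in 47 of the 135 on the other autosomes. Cut into 20 equal parts, III lay above each of the other autosomes in 5 parts, with 14.5 peaks per Mb from 10% to 15% of its length, 23.2 from 30% to 35%, 20.3 from 50% to 55%, 21.8 from 75% to 80% and 13.1 from 95% to 100%. Any autosome can lead in some parts, and the parts led by I, II, IV or V were not counted, so this is not shown to be particular to III. No test of windows or parts was made, since neighbouring windows and peaks are not independent.

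**Figure D3:**
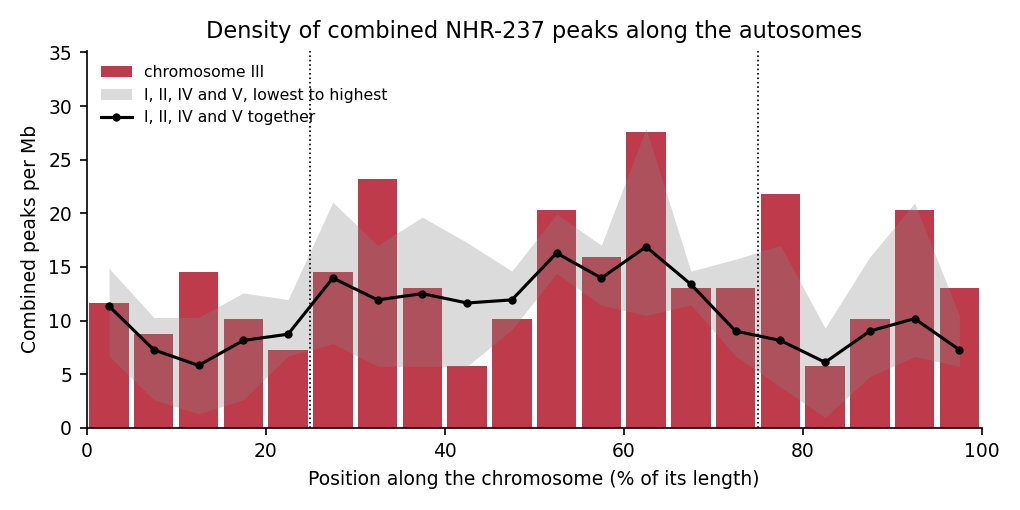
The profile gives combined peaks per Mb (y axis) in 20 equal parts of the chromosome (x axis, percent of its length) for III as bars, for I, II, IV and V together as a line, and for the lowest to the highest of these as a grey band. Dotted lines bound the central 50%. The fullest part of III, from 60% to 65%, has 27.6 peaks per Mb, just under the band's upper edge of 27.9. On III 5 of the 20 parts lie above the band, a count not made for the other autosomes.

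The window counts of the replicates followed each other. Over the 13 windows of 1 Mb on III, the 1119 strongest peaks of each library ran from 8 to 24 per window in both, with a Spearman's rho of 0.92 between the libraries, against 0.80 over 67 windows of the other autosomes. In windows of 0.5 Mb rho was 0.71 over 27 windows of III and 0.75 over 135 of the other autosomes, so III was higher at one window size and lower at the other. The windows of a chromosome share both libraries, and these values are a description. The full lists were less even between libraries. Per 1 Mb window of III, replicate 2 had a median of 1.12 times as many peaks as replicate 1, with a range from 0.846 (6 to 7 Mb, 187 in replicate 2 and 221 in replicate 1) to 1.77 (1 to 2 Mb, 156 and 88). The largest surplus of replicate 2 was thus on the left arm.

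Few sites on III were crowded. A neighbour within 2 kb, edge to edge, was found for 26 of 193 combined peaks on III (13.5%, interval 9.36 to 19.0) and for 97 of 734 on the other autosomes (13.2%, interval 11.0 to 15.9), beside 13.1% of the whole list. The odds ratio was 1.02 (interval 0.615 to 1.65, Fisher's exact adjusted p = 0.91). Among the other autosomes this share ran from 8.09% on V to 20.9% on I. The 26 peaks formed 8 runs of 2, 2 runs of 3 and 1 run of 4.

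The run of 4 was the longest in the combined list on any autosome. It spanned 5663 bp on the left arm, at III 1921163 to 1926825, with combined numbers 241, 311, 134 and 501 from left to right. In replicate 1 these were numbers 104, 391, 79 and 861, and in replicate 2 numbers 158, 264, 345 and 329. Each of the 4 was therefore among the 1000 strongest peaks of both libraries, and the order of their strength differed between the libraries. The run of 3 at 8794669 to 8797502 had numbers 257, 100 and 1018. A run of 2 began 2451 bp to its right, at 8799954 to 8802266, with numbers 859 and 222. The run of 3 at 13061002 to 13062799 on the right arm had numbers 213, 1027 and 132. Its first 2 peaks overlapped each other and each overlapped 2 peaks of either library. The lower-numbered of these, taken as the match, was the same for both (number 342 in replicate 1 and 121 in replicate 2). A run of 2 at 13068192 to 13070782, with numbers 295 and 107, lay a few kilobases further right.

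Nearly all combined peaks on III were found in both libraries, as on the other autosomes. Of the 193, 191 (99.0%) overlapped a peak of both replicates by at least 1 bp, and on the other autosomes 727 of 734 (99.0%) did, beside 99.0% of the whole list. The combined list was made from these libraries, so the share is no independent check. Both exceptions were found in replicate 1 alone. Combined peak 1035, at III 8874013 to 8874462, was number 380 there, and combined peak 1108, at 3870583 to 3871032, was number 660. This second site lies 2891 bp to the right of combined peak 1. On III the median number of the matching peak was 456 in replicate 1 and 493 in replicate 2, against 601 and 596 on the other autosomes. Both matching peaks were among the 1119 strongest of their library for 128 of 193 peaks on III (66.3%) and for 409 of 734 on the other autosomes (55.7%), beside 58.7% of the whole list.

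The libraries shared the order of the sites on III in part. Over the 191 shared sites the numbers in the replicates had a Spearman's rho of 0.58, against 0.41 over 727 sites of the other autosomes, where single autosomes ran from 0.28 on V to 0.51 on I. These values are across sites of 1 pair of libraries and are given as a description. For a typical site on III the worse number was 1.90 times the better, the median on the other autosomes also being 1.90. It was more than 3 times the better for 51 of the 191 (26.7%), much as on the other autosomes (28.1%) and over all shared sites of the list (28.8%). Among the 300 strongest combined peaks, the number differed most for peak 25 (11.2 times). Peak 211, at III 349596 to 350045, followed with number 100 in replicate 1 and 893 in replicate 2, 8.93 times as far down. Peak 134, within the run of 4, was number 79 in replicate 1 and 345 in replicate 2. Peaks 226 (7162247 to 7162696) and 272 (640372 to 640821) were further down in replicate 1, at 488 and 486, than in replicate 2, at 122 and 127.

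**Figure D4:**
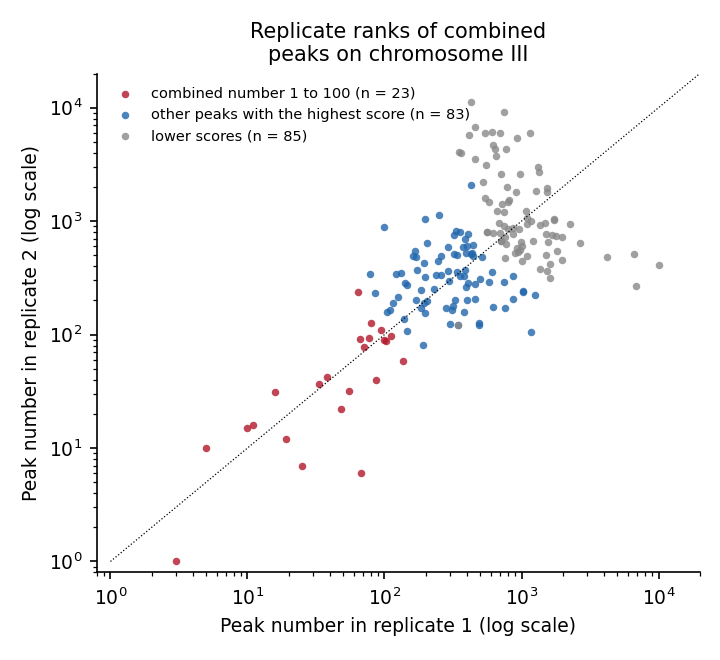
Each point is one of the 191 combined peaks on chromosome III with a match in both libraries, placed by its number in replicate 1 (x axis) and replicate 2 (y axis) on log scales, and the dotted line marks equal numbers. The 23 peaks numbered 1 to 100 lie at the lower left, and peaks with lower scores spread up to number 10158 in replicate 1 and 11309 in replicate 2.

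Of replicate 1 peaks, 928 of 2247 on III (41.3%, interval 39.3 to 43.3) and 4186 of 10776 on the other autosomes (38.8%, interval 37.9 to 39.8) overlapped a replicate 2 peak by at least 1 bp, beside 38.8% of the whole list. The odds ratio was 1.11 (interval 1.01 to 1.22, Fisher's exact p = 0.031, adjusted p = 0.054). Of replicate 2 peaks, 968 of 2543 on III (38.1%, interval 36.2 to 40.0) and 4356 of 12282 on the other autosomes (35.5%, interval 34.6 to 36.3) overlapped a replicate 1 peak, beside 36.2% of the whole list. This difference passed (odds ratio 1.12, interval 1.02 to 1.22, Fisher's exact adjusted p = 0.047), but not when the overlap had to cover 50% of both peaks (odds ratio 1.10, adjusted p = 0.075). Among the 1119 strongest peaks of each library the replicate 2 difference was larger, with 66.8% on III and 55.7% on the other autosomes (odds ratio 1.60, Fisher's exact adjusted p = 0.019). The replicate 1 difference at that setting missed the threshold, with 65.1% and 57.4% (odds ratio 1.39, interval 0.986 to 1.96, Fisher's exact adjusted p = 0.10). In the full lists, the share on III was matched on IV in replicate 1 (41.4%) and was above each other autosome in replicate 2 (34.0% to 36.8%).

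By rank, the overlap on III followed that of the other autosomes. Every peak on III numbered 1 to 100 in either library overlapped the other, 23 in replicate 1 and 21 in replicate 2. For numbers 1001 to 2000 the share in replicate 1 was 69.7% on III (interval 61.7 to 76.6) and 70.4% on the other autosomes, and in replicate 2 it was 66.4% (interval 58.0 to 73.9) and 62.7%. Replicate 1 peaks numbered 2001 to 4000 overlapped more often on III, at 54.4% (interval 48.5 to 60.2) against 48.3% (interval 45.5 to 51.0). In replicate 2 the same class gave 48.3% on III and 46.3% on the other autosomes. From number 12001 on, 26.9% of replicate 1 peaks and 24.2% of replicate 2 peaks on III still overlapped, against 27.5% and 24.0% on the other autosomes. These classes were not tested.

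**Figure D5:**
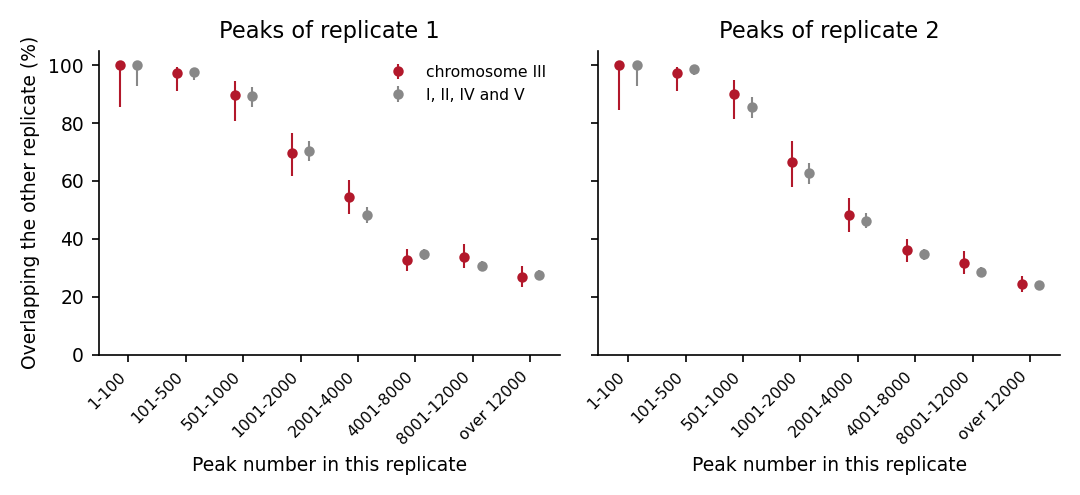
Points give the percentage of replicate 1 peaks (left panel) and replicate 2 peaks (right panel) that overlap a peak of the other replicate (y axis), by peak number (x axis), for chromosome III and for the other autosomes, with 95% Wilson intervals. On III the share runs from 100% for numbers 1 to 100 to 26.9% and 24.2% for the weakest class, and on the other autosomes to 27.5% and 24.0%.

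The combined list left out some strong replicate sites on III. Of the 195 peaks on III among the 1119 strongest of replicate 1, 160 (82.1%) were in the combined list, and of 193 in replicate 2, 155 (80.3%) were, against 81.2% and 73.9% on the other autosomes. The left-out peaks with the lowest numbers, named after their values were seen, were number 476 of replicate 1 at III 7572788 to 7573207 and number 439 of replicate 2 at 13778722 to 13779177. Neither overlapped any peak of the other library. Other left-out peaks on III had higher scores, such as 2.67 for number 707 of replicate 1, against 2.50 for number 476, and 2.51 for number 489 of replicate 2, against 2.47 for number 439.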

How the data were processed

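The deposited files used were 3 peak lists in WormBase WS220 coordinates, one for each ChIP library and one for both together, per the file headers. Their second column reads spp_via_IDR, which stands for SPP, a ChIP-seq peak caller, and IDR, the irreproducible discovery rate between replicates. The aligner, filters, thresholds and use of input were not given in the sources used here. A score, with no stated meaning, was set by the authors' caller for every peak, per the deposited files. Other deposited values are peak starts and ends, counted from 1. Read depth is unknown.

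Peaks were placed by their centres. Shares were compared between III and the other autosomes with Fisher's exact test and densities with an exact binomial test, adjusted by Benjamini-Hochberg over 7 comparisons at 0.05. For an alternative, its p took the place of the main one among the 7. Runs joined peaks at most 2 kb apart. Where several replicate peaks overlapped a combined peak, the strongest was its match. The sites named are the 15 strongest on III, runs of 3 or more, the strongest peaks of the fullest and emptiest 1 Mb windows, sites missing in a replicate and the 5 with the largest ratio of replicate numbers among the 300 strongest, with neighbouring runs added later. The chromosome, tests and classes were chosen with earlier results of these data known. The tests were tried on simulated data and overlaps checked with bedtools 2.31.1. SciPy 1.17.1, pandas 2.3.3 and NumPy 2.4.6 ran under Python 3.11.15.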

Additional observations from a re-analysis of the deposited data

How the results depend on the processing

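Of 60 alternatives to the 7 tested comparisons, 42 left both the direction and the call in place. The density ratio of III to the other autosomes (1.31) was 1.68 for the highest score, 1.55 for the upper 50% of numbers and 1.98 for numbers 1 to 300. For peaks numbered above 300 it was 1.12. It fell short of the threshold without V (1.19) and against I (1.10), II (1.20) or IV (1.28) alone. These alternatives and both classes bounded at number 300 were added after the data were seen. From single replicates the density ratio was 1.03 to 1.38, the low values coming from the full lists. The odds ratio of central shares (0.793) turned to 1.0 for peaks with the highest score, and was 0.801 to 1.10 in single replicates. That of the left 50% (0.789) was 0.675 to 1.03 there, passing in the 1119 strongest peaks of replicate 2. The odds ratio of numbers 1 to 100 (1.85) passed for numbers 1 to 300 (1.78), a bound chosen with earlier results known, and without chromosome I (1.96, added later). It missed for numbers 1 to 50 (2.49) and 1 to 200 (1.48) and with peaks within 2 kb merged (1.88). Without II (1.84), IV (1.84) or V (1.76), all added later, it missed too, as it did in single replicates (1.71 to 1.75). That of neighbours (1.02) turned to 0.705 with gaps of 1 kb and 0.932 with centres within 2 kb (added later), and was 1.02 to 1.33 in single replicates. Replicate 1 overlap (1.11) passed with 5000 peaks per list (1.24) and missed with the 1119 strongest (1.39). Replicate 2 overlap (1.12) missed with 50% of both peaks (1.10) and with centres within 200 bp (1.12), and passed with the 1119 strongest (1.60) and 5000 strongest peaks per list (1.28). The cause was not tested. The fullest 1 Mb window held 19 to 24 peaks and the emptiest 8 to 9 under all 4 alternatives. Leaving out a replicate gives no overlap between replicates. No paired analysis was possible because only the ChIP group was analysed here, and its 2 lists are compared with each other. A site missing from a list is not shown to be unbound at an unknown depth.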

Other observations

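Between neighbouring combined peaks on III, 6 of 192 gaps were wider than 300 kb. The counts were 7 of 190 on I, 7 of 177 on II, 11 of 191 on IV and 18 of 172 on V, so III was near I and II. The widest on III, from 11317398 to 11719304, spanned 402 kb, and the widest on the other autosomes spanned 540 kb on I, 1069 kb on II, 516 kb on IV and 892 kb on V. The gap on III was not empty in the single libraries, which listed 44 and 55 peaks there, the strongest being number 946 in replicate 1 and 839 in replicate 2. The next widest, from 6608494 to 6971936, ended at combined peak 16 and held 60 and 65 replicate peaks. At the left end, between 26095 and 349596, no combined peak was listed. The libraries listed 40 and 39 peaks there, with best numbers of 872 in replicate 1 and 2588 in replicate 2.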
